A study of Mus musculus with 4 samples.

Results

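The genes described here take glucose into the heart muscle cell, break it down to lactate or pyruvate, and store it as glycogen. They were chosen by name, 31 in all, and each was represented by the probe set that carried its symbol alone and had the highest mean over the 4 arrays of the series. Of the 31 genes, 27 had such a probe set among the 18193 genes represented in the tests. Gapdh was annotated only to 3 control probe sets, which are described but were not tested, and Gpi1, Pfkfb1 and Eno1 were not named by any probe set here and were not analysed. Each array, an Affymetrix design with 45101 probe sets, measured total RNA from a heart. There were 2 arrays from mice carrying a Sirt1 transgene, labelled Tg-Sirt1 1 and Tg-Sirt1 2, and 2 from wild type mice, labelled NTg 1 and NTg 2. All 4 hearts were taken after pentobarbital at 120 mg/kg and frozen in liquid nitrogen. The labels state neither what promoter drives the transgene nor the mice's strain, age or sex. Values are log2 expression, so a difference of 1 is a 2-fold difference, and fold changes and differences are taken between arrays for 1 probe set.

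Glucose enters muscle through facilitative carriers, chiefly GLUT4, which insulin and contraction move to the cell surface, and the ubiquitous GLUT1. Hexokinase traps it as glucose 6-phosphate, which either goes through glycolysis, with phosphofructokinase as the main control point, or is stored as glycogen. Several steps have a muscle form and a form found in most tissues. The adult heart draws mainly on fatty acids, and glucose use is known to gain weight in the fetal and the overloaded heart.

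The arrays set a limit on every comparison between the labels. The arrays labelled Tg-Sirt1 1 and NTg 1 were nearly the same, with a largest difference of 0.48 over 45037 probe sets and no probe set over 2-fold apart, whereas each of the other 5 pairs of arrays had 551 to 1101 probe sets over 2-fold apart. They are called the pair below. Sirt1 read 7.93 on Tg-Sirt1 2 and 7.16 on the array labelled Tg-Sirt1 1, compared with 7.30 on NTg 1 and 7.17 on NTg 2, so that the array labelled Tg-Sirt1 1 was the lowest of the 4. They may hold 1 library deposited under both labels, in which case the means, SDs and fold changes of 2 against 2 arrays below hold that library on both sides. The labels are used as given, and no array was moved. In the pair, the 27 genes differed by a median of 0.02, with the largest difference, 0.32, at Slc16a3. All 11 cardiomyocyte markers were measured and read between 9.75 and 14.15 on every array.

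Between the labels, none of the 27 genes passed the test. The largest differences were those of Pfkfb2, Pgam1 and Slc2a1 on the higher side and of Slc2a4 on the lower side. Pfkfb2 had a log2 fold change of 0.50 with a standard error of 0.26, Pgam1 0.41 with 0.32, Slc2a1 0.35 with 0.20 and Slc2a4 -0.28 with 0.20. Each of these rested on 1 or both arrays outside the pair. Without NTg 2, Pgam1 stood at -0.055, Pfkfb2 at 0.31 and Slc2a1 at 0.18. Without Tg-Sirt1 2, Slc2a4 stood at -0.025, Pfkfb2 at 0.18 and Slc2a1 at 0.18. The Tg-Sirt1 mean was higher at 20 of the 27 genes and lower at 7, with a median log2 fold change of 0.12, against 9653 higher and 8324 lower and a median of 0.015 over all 18193 genes. Without NTg 2 it was higher at 11 of 27, with a median of -0.035. In limma, with Benjamini-Hochberg adjustment over 45037 probe sets, the called share was 0% of probe sets, and the adjusted p of each of the 27 genes was 0.996. Unadjusted p-values of the 27 ran from 0.116 to 0.959, and 28 of the 45037 probe sets had an unadjusted p under 0.05 in this limma fit. The pair sat under opposite labels, and 95% intervals such as -0.18 to 1.18 for Pfkfb2 cover changes in both directions. Both Tg-Sirt1 values lay above both NTg values at 4 of the 27 genes, Slc2a1, Ldhb, Pgm2 and Gbe1, where the share over all genes was 11.4%. Both lay below at 2, Slc2a4 and Gys1, where the share over all genes was 9.3%. The 2 shares among the 27 genes, 14.8% and 7.41%, were near these. The labels say no more of replicates than that they are separate samples, so p-values measure only the spread between these samples, which may be technical. With the pair counted once, as Tg-Sirt1 or as NTg, limma again called 0 probe sets, with lowest adjusted p-values of 0.508 and 0.288.

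**Figure D1:**
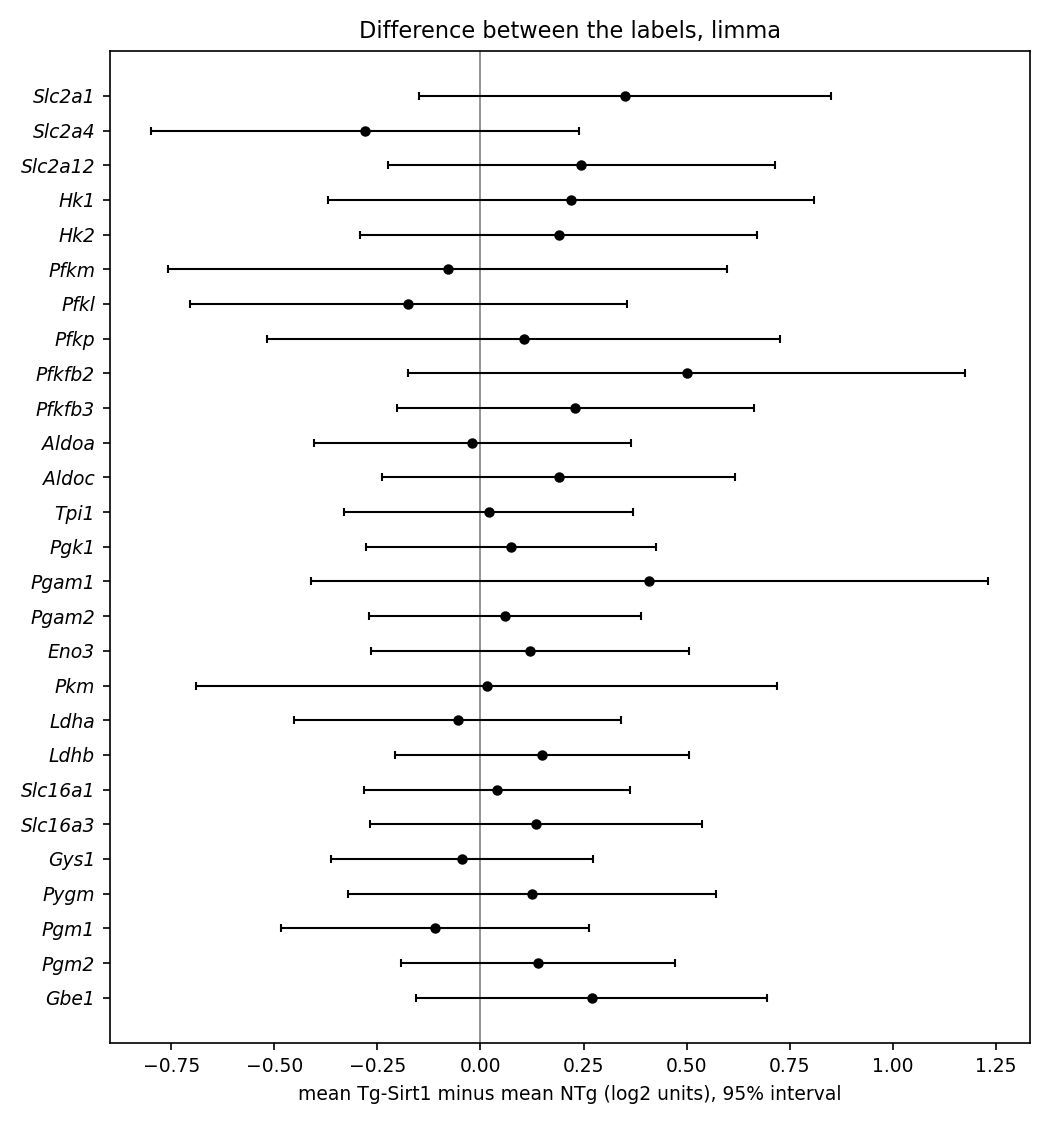
Log2 fold change of 27 genes, mean of the 2 Tg-Sirt1 arrays minus mean of the 2 NTg arrays, with 95% intervals from limma (horizontal axis, log2 units). Every interval spans 0, and the points run from -0.28 at Slc2a4 to 0.50 at Pfkfb2.

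The larger differences lay on the 2 arrays outside the pair, Tg-Sirt1 2 and NTg 2, and they differed from gene to gene. A difference of over 0.5 from the mean of the pair was taken as large, since no probe set differed by that much within the pair. On Tg-Sirt1 2, 1 gene was over 0.5 higher than the pair, Pfkfb2 (3.70% of the 27, where the share over all genes was 3.09%). There, 4 genes were over 0.5 lower, Slc2a4, Pfkm, Pfkl and Pkm (14.8%, where the share over all genes was 3.47%). On NTg 2, 0 genes were over 0.5 higher (share over all genes 3.59%), and 4 were over 0.5 lower, Hk1, Pfkp, Pgam1 and Pkm (14.8%, share over all genes 8.71%). These are values of single arrays, with no replicate and no test. A second quantile normalization left 2 such genes on Tg-Sirt1 2, Pfkfb2 at 0.67 and Pfkm at -0.55, and 1 on NTg 2, Pgam1 at -0.71.

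**Figure D2:**
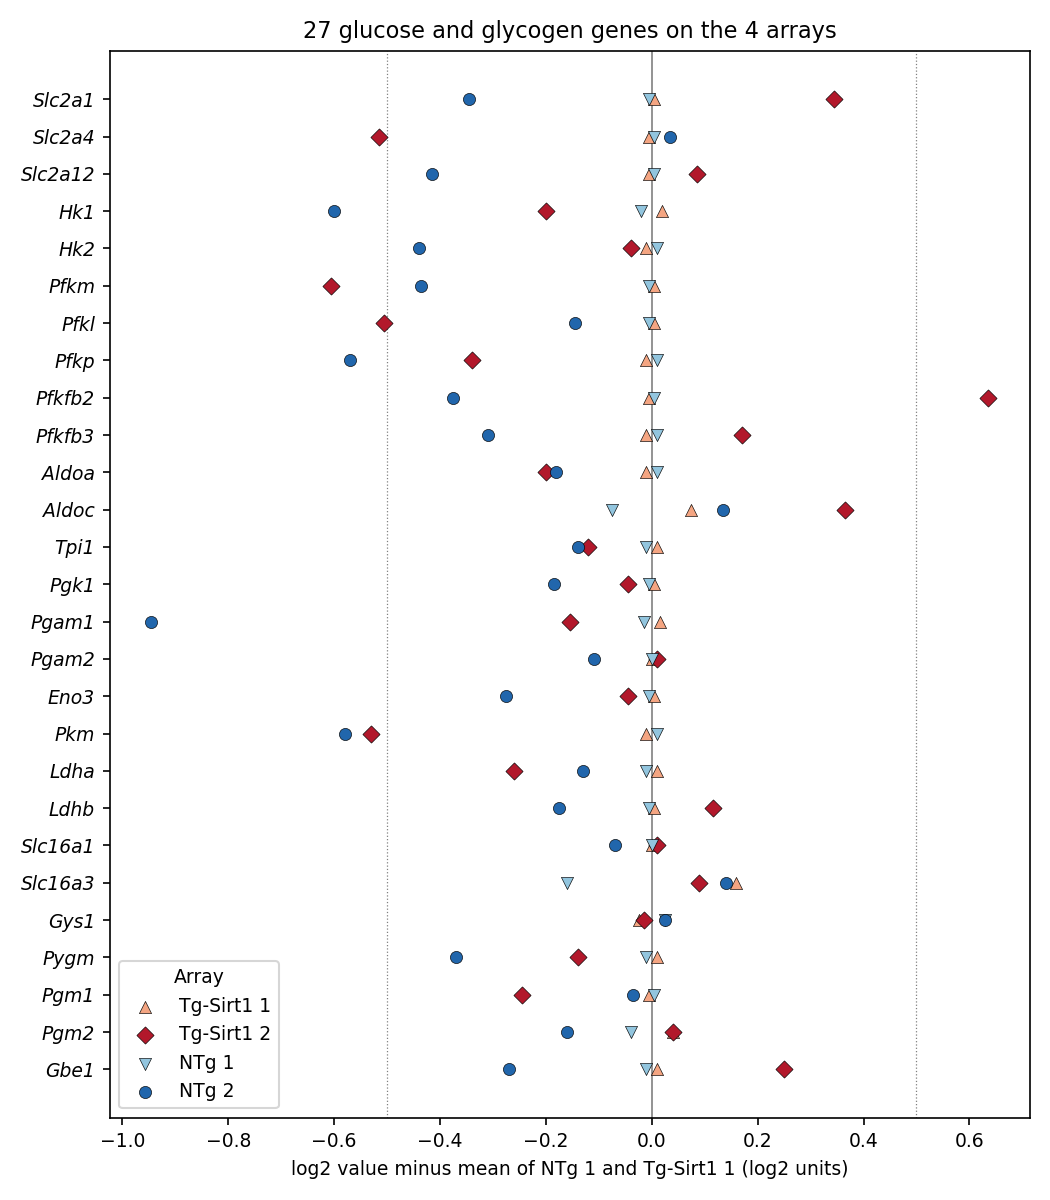
Value of each of 27 genes on each array minus its mean on the arrays labelled Tg-Sirt1 1 and NTg 1 (horizontal axis, log2 units), with 1 symbol per array and dotted lines at 0.5 to either side. The triangles of the pair lie close to 0, while Tg-Sirt1 2 ranges from -0.605 at Pfkm to 0.635 at Pfkfb2 and NTg 2 from -0.945 at Pgam1 to 0.14 at Slc16a3.

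The 2 main glucose carriers differed from the pair in opposite directions on Tg-Sirt1 2. Slc2a4, which encodes the insulin-responsive carrier GLUT4, read 10.37 on Tg-Sirt1 2 and 10.88 on the array labelled Tg-Sirt1 1, compared with 10.89 on NTg 1 and 10.92 on NTg 2. It was thus low on Tg-Sirt1 2 and level within 0.04 on the other 3 arrays. Slc2a1, which encodes the basal carrier GLUT1, read 8.67 on Tg-Sirt1 2 and 8.33 on the array labelled Tg-Sirt1 1, compared with 8.32 on NTg 1 and 7.98 on NTg 2. Its groups did not overlap, but by 0.01, the difference within the pair. Means were 8.50 ± 0.24 in Tg-Sirt1 and 8.15 ± 0.24 in NTg for Slc2a1, and 10.63 ± 0.36 in Tg-Sirt1 and 10.91 ± 0.02 in NTg for Slc2a4 (SD, n = 2 each). Slc2a12, which encodes the carrier GLUT12, read 6.83 on Tg-Sirt1 2 and 6.74 on the array labelled Tg-Sirt1 1, compared with 6.75 on NTg 1 and 6.33 on NTg 2, so that NTg 2 was the low array. The ratio of Slc2a4 to Slc2a1 was 0.86 log2 units lower on Tg-Sirt1 2 than on the pair and 0.38 higher on NTg 2.

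The carriers' other probe sets gave the same low array for Slc2a4, a mixed picture for Slc2a1 and another order for Slc2a12. The dimmer Slc2a4 probe set read 8.85 on Tg-Sirt1 2 and 10.44 on the array labelled Tg-Sirt1 1, compared with 10.45 on NTg 1 and 9.84 on NTg 2. On it the difference from the pair was -1.595 on Tg-Sirt1 2 and -0.605 on NTg 2, whereas the brighter probe set put NTg 2 at 0.035. All 3 Slc2a1 probe sets were lowest on NTg 2, with differences from the pair of -0.545 to -0.345. On Tg-Sirt1 2 the 3 differed from the pair by 0.345, 0.205 and -0.13. The second Slc2a12 probe set was highest on NTg 2, at 6.15, with the rest between 6.03 and 6.11. Fat cells also express Slc2a4. Of the 7 adipocyte markers measured, 5 read below the pair on Tg-Sirt1 2, among them Adipoq, Ucp1 and Cidea, and 5 on NTg 2. The mean log2 level of the 7 was 7.11 on Tg-Sirt1 2 and 7.60 on the array labelled Tg-Sirt1 1, compared with 7.59 on NTg 1 and 7.19 on NTg 2. Their part in the Slc2a4 values was not tested, and in whole hearts fewer cells of a type cannot be told from less RNA per cell.

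Promoter sequence is shown for Slc2a1, Pfkfb2 and Pgam1, the 3 genes with the largest log2 fold changes on the higher side, each for the 250 bases before a transcription start (1 of 3 starts for Pfkfb2), 5′ to 3′, from RefSeq on GRCm38.p6. Capitals mark ACGTG, the core letters of hypoxia response elements, on either strand. In Pfkfb2 the matches on the 2 strands overlap and spell CACGTG, the E-box letters that Myc and clock factors are known to bind. The Pfkfb2 start shown was chosen because its window holds these letters. Another of its starts had 1 match to ACGTG and no CACGTG, and the last had no match to either.
Slc2a1, chr4:119108495-119108744, plus strand: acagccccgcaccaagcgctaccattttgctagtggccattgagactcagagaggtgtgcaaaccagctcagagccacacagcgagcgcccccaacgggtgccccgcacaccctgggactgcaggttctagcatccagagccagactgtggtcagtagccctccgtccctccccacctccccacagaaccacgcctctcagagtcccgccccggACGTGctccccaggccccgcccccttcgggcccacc
Pfkfb2, chr1:130715822-130716071, minus strand: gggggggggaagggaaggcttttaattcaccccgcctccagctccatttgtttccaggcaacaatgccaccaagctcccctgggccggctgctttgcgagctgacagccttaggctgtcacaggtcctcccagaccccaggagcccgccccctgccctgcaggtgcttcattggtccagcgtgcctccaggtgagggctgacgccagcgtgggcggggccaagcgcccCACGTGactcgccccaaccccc
Pgam1, chr19:41911621-41911870, plus strand: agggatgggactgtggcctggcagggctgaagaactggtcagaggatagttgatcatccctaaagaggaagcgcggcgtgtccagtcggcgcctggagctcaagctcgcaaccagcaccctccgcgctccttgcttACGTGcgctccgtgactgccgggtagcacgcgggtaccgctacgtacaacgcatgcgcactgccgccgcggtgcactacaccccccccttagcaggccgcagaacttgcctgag

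In these windows, extended by the 50 bases after the start, ACGTG stood at least once on either strand in 17 of the 26 genes with a promoter in the table (65.4%). Over all 14369 genes of the array with a promoter in the table the share was 26.2%, and per window of 300 bases it was 55.3% for the 26 genes and 22.9% for the array's genes. CACGTG stood in 5 of the 26 genes (19.2%), Pfkfb2, Pfkfb3, Slc16a1, Ldha and Pfkm, and in 10.3% of the array's genes. Genes with ACGTG included Pfkfb2 and Slc2a1, which were higher on Tg-Sirt1 2 than on the pair, and Pfkm and Pkm, which were lower. A match is a run of letters, not a site shown to be bound.

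At the entry to glycolysis both hexokinase genes were lowest on NTg 2. Hk2, the insulin-regulated muscle form, read 11.30 on Tg-Sirt1 2 and 11.33 on the array labelled Tg-Sirt1 1, compared with 11.35 on NTg 1 and 10.90 on NTg 2. Hk1, the form of most tissues, read 11.34 on Tg-Sirt1 2 and 11.56 on the array labelled Tg-Sirt1 1, compared with 11.52 on NTg 1 and 10.94 on NTg 2. Their log2 fold changes, 0.19 for Hk2 and 0.22 for Hk1, were -0.035 and -0.07 without NTg 2. A dimmer Hk1 probe set was low on both arrays outside the pair, at 8.30 on Tg-Sirt1 2 and 9.95 on the array labelled Tg-Sirt1 1, compared with 9.96 on NTg 1 and 8.47 on NTg 2. Its difference from the pair on Tg-Sirt1 2 was thus -1.655, where that of the brighter probe set was -0.20.

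The 3 phosphofructokinase genes, whose products form the tetramer of the committed step, were all lower on Tg-Sirt1 2 and on NTg 2 than on the pair. Pfkm, the muscle subunit, read 11.76 on Tg-Sirt1 2 and 12.37 on the array labelled Tg-Sirt1 1, compared with 12.36 on NTg 1 and 11.93 on NTg 2. Pfkl, the liver subunit, read 9.90 on Tg-Sirt1 2 and 10.41 on the array labelled Tg-Sirt1 1, compared with 10.40 on NTg 1 and 10.26 on NTg 2. Pfkp, the platelet subunit, read 9.38 on Tg-Sirt1 2 and 9.71 on the array labelled Tg-Sirt1 1, compared with 9.73 on NTg 1 and 9.15 on NTg 2. Tg-Sirt1 2 was the low array for Pfkm and Pfkl, and NTg 2 for Pfkp. Second probe sets of Pfkl and Pfkp put Tg-Sirt1 2 further down, with differences from the pair of -1.02 and -1.035. After a second quantile normalization Pfkl was 0.10 above the pair on NTg 2, while Pfkm and Pfkp stayed below it on both arrays.

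The brightest probe sets of the bifunctional enzymes that make and remove fructose 2,6-bisphosphate, the activator of phosphofructokinase, read higher than the pair on Tg-Sirt1 2. Pfkfb2, the heart form, read 9.28 on Tg-Sirt1 2 and 8.64 on the array labelled Tg-Sirt1 1, compared with 8.65 on NTg 1 and 8.27 on NTg 2, the widest range of the 27 genes at 1.01. Pfkfb3, an inducible form, read 7.32 on Tg-Sirt1 2 and 7.14 on the array labelled Tg-Sirt1 1, compared with 7.16 on NTg 1 and 6.84 on NTg 2. On these probe sets both were highest on Tg-Sirt1 2 and lowest on NTg 2. The other 3 Pfkfb2 probe sets, all dimmer, did not share the high value, with differences from the pair of -0.645 to -0.26 on Tg-Sirt1 2. The second Pfkfb3 probe set showed the reverse order, lowest on Tg-Sirt1 2 at 6.76 and highest on NTg 2 at 6.94, with 6.83 and 6.81 on the pair. Averaged over the 4 Pfkfb2 probe sets, the log2 fold change was 0.08.

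Aldoa and Tpi1, the triose phosphate isomerase gene, ranged over 0.21 and 0.15 across the arrays, and Aldoc over 0.44. Aldoa, the muscle aldolase, read 13.12 on Tg-Sirt1 2 and 13.31 on the array labelled Tg-Sirt1 1, compared with 13.33 on NTg 1 and 13.14 on NTg 2. Aldoc, known as the brain aldolase, read 5.89 on Tg-Sirt1 2 and 5.60 on the array labelled Tg-Sirt1 1, compared with 5.45 on NTg 1 and 5.66 on NTg 2. Tpi1 ranged from 11.86 to 12.01. In lower glycolysis, Pgk1, the phosphoglycerate kinase gene, ranged from 12.68 to 12.87 and Eno3, the muscle enolase gene, from 12.89 to 13.17. NTg 2 was the lowest array for all 3. Without NTg 2 the log2 fold changes of Tpi1 and Eno3 were -0.045 and -0.015.

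The phosphoglycerate mutases, which move a phosphate within the 3-carbon acid, separated by isoform. Pgam1, the form of most tissues, read 9.98 on Tg-Sirt1 2 and 10.15 on the array labelled Tg-Sirt1 1, compared with 10.12 on NTg 1 and 9.19 on NTg 2. Pgam2, the muscle form, read 12.38 on Tg-Sirt1 2 and 12.37 on the array labelled Tg-Sirt1 1, compared with 12.37 on NTg 1 and 12.26 on NTg 2. The ratio of Pgam2 to Pgam1 was therefore 0.835 higher on NTg 2 than on the pair, the widest isoform shift on that array, and 0.165 higher on Tg-Sirt1 2. Pkm, the pyruvate kinase gene of muscle and proliferating cells, read 11.60 on Tg-Sirt1 2 and 12.12 on the array labelled Tg-Sirt1 1, compared with 12.14 on NTg 1 and 11.55 on NTg 2. It was low on both arrays outside the pair, so that its mean was 11.86 ± 0.37 in Tg-Sirt1 and 11.85 ± 0.42 in NTg (SD, n = 2 each).

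Fibroblasts and other non-muscle cells use the isoforms of most tissues. Of 10 fibroblast markers, 9 were below the pair on Tg-Sirt1 2 (median -0.60) and 10 on NTg 2 (median -0.96). Their mean log2 level was 10.26 on Tg-Sirt1 2 and 10.77 on the array labelled Tg-Sirt1 1, compared with 10.76 on NTg 1 and 9.88 on NTg 2. Col1a1, a collagen gene with the widest range of these 10 markers, read 9.58 on Tg-Sirt1 2 and 10.50 on the array labelled Tg-Sirt1 1, compared with 10.51 on NTg 1 and 9.18 on NTg 2. On NTg 2 the 9 isoforms grouped here as other than muscle or heart forms had a median of -0.31 relative to the pair. They were Slc2a1, Hk1, Pfkl, Pfkp, Pfkfb3, Aldoc, Pgam1, Ldha and Slc16a3, not all of them forms of most tissues. There 3 of the 9 were over 0.5 lower, and 0 of 11 muscle or heart forms, whose median was -0.275 (share over all genes 8.71%). On Tg-Sirt1 2 it was 1 of the 9 (median -0.155) and 2 of the 11 (median -0.04), with 1 of the 11 over 0.5 higher (share over all genes 3.47% lower). The 11 were Slc2a4, Slc2a12, Hk2, Pfkm, Pfkfb2, Aldoa, Pgam2, Eno3, Ldhb, Gys1 and Pygm. Pkm was placed in neither group, and differed from the pair by -0.58 on NTg 2 and -0.53 on Tg-Sirt1 2. The 0 of 11 on NTg 2 thus holds only with Pkm left out of the muscle forms. Markers of several other cell types, cardiomyocytes included, were mostly below the pair on the same arrays. Cardiomyocyte markers were below it at 10 of 11 on Tg-Sirt1 2 (median -0.165) and 11 of 11 on NTg 2 (median -0.08). Endothelial markers were below the pair at 9 of 12 on Tg-Sirt1 2 and 11 of 12 on NTg 2, smooth muscle markers at 8 of 9 on each, and macrophage markers at 8 and 9 of 12. Neutrophil markers were instead above it, at 4 of 6 on Tg-Sirt1 2 and 6 of 6 on NTg 2, where S100a8 differed by 1.86. The part of these cell type markers in the isoform values was not tested. Of 18 skeletal muscle markers, 13 were above the pair on NTg 2, with a median of 0.11. The mean log2 level of the 18 was 6.56 on Tg-Sirt1 2 and 6.59 on the array labelled Tg-Sirt1 1, compared with 6.61 on NTg 1 and 6.77 on NTg 2. That level is near the array median, which was itself 6.30 on NTg 2 against 6.22 to 6.24 on the other arrays. The lower quartile was also highest on NTg 2, at 5.16 against 5.05 to 5.07. The part of this in the skeletal muscle markers was not tested. The skeletal muscle calcium store gene Casq1 read 10.02 on NTg 2, with the rest between 7.91 and 8.47, while Myl1 was lowest there.

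Genes of lactate metabolism and transport each spanned 0.32 or less over the arrays on their brightest probe sets. Ldhb, the heart subunit of lactate dehydrogenase, read 13.74 on Tg-Sirt1 2 and 13.63 on the array labelled Tg-Sirt1 1, compared with 13.62 on NTg 1 and 13.45 on NTg 2. Ldha, the subunit of glycolytic muscle, read 11.90 on Tg-Sirt1 2 and 12.17 on the array labelled Tg-Sirt1 1, compared with 12.15 on NTg 1 and 12.03 on NTg 2. On Tg-Sirt1 2 the ratio of Ldhb to Ldha was 0.375 higher than on the pair, and on NTg 2 it was 0.045 lower. The other Ldhb probe sets did not all share its order. They differed from the pair by 0.14, -0.04 and 0.035 on Tg-Sirt1 2, and by -0.16, -0.09 and 0.115 on NTg 2. Slc16a1, which encodes the lactate carrier MCT1, read 11.32 on Tg-Sirt1 2 and 11.31 on the array labelled Tg-Sirt1 1, compared with 11.31 on NTg 1 and 11.24 on NTg 2. A far dimmer Slc16a1 probe set spanned 0.42, from 5.46 to 5.88. Slc16a3, which encodes MCT4, the exporter of glycolytic muscle, read 6.05 on Tg-Sirt1 2 and 6.12 on the array labelled Tg-Sirt1 1, compared with 5.80 on NTg 1 and 6.10 on NTg 2. For Slc16a3 the low array was NTg 1, and the difference lay within the pair itself.

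**Figure D3:**
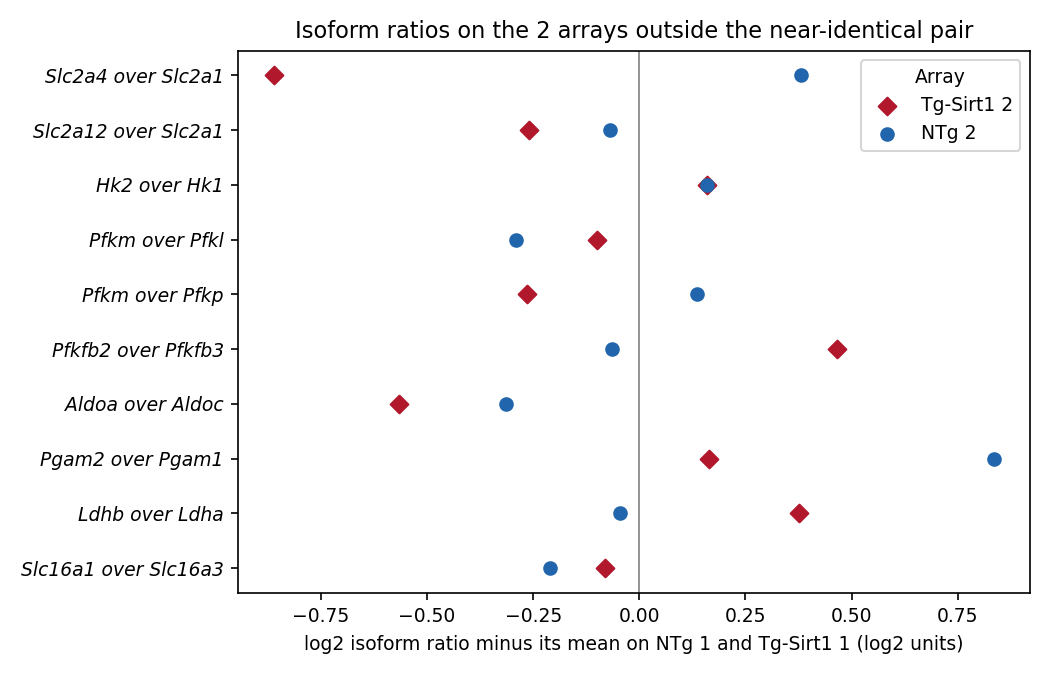
Log2 ratio of an isoform to another, minus the same ratio on the arrays labelled Tg-Sirt1 1 and NTg 1 (horizontal axis, log2 units), for Tg-Sirt1 2 and NTg 2. The muscle or heart form is named first, except in Slc16a1 over Slc16a3. Slc2a4 over Slc2a1 lies at -0.86 on Tg-Sirt1 2 and 0.38 on NTg 2, and Pgam2 over Pgam1 at 0.165 and 0.835.

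The isoform ratios, with the muscle or heart form first except in Slc16a1 to Slc16a3, did not all lie on 1 side. Of 10 isoform ratios, 3 had a higher mean in Tg-Sirt1, those of Pfkm to Pfkl (0.095), Pfkfb2 to Pfkfb3 (0.27) and Ldhb to Ldha (0.205). The other 7 had a lower one, led by Slc2a4 to Slc2a1 (-0.63). Among the 7 were the ratios to Aldoc and to Slc16a3, genes that read below the median probe set on every array. Aldoc lay at percentiles 33.3 to 43.1 and Slc16a3 at 40.9 to 47.5. Slc2a4 to Slc2a1 and Pfkfb2 to Pfkfb3 were the 2 ratios in which the labels did not overlap. The gap between the labels was only the difference within the pair, Tg-Sirt1 1 minus NTg 1, of -0.02 and 0.01. Exact permutation of the labels over 2 and 2 arrays, two-sided, cannot give a p below 0.333, and each of these 2 ratios had p = 0.333, with an adjusted p of 0.952 over the 10 ratios. Without NTg 2 the Slc2a4 to Slc2a1 ratio was -0.445 and without Tg-Sirt1 2 it was -0.205. Without Tg-Sirt1 2 the ratio of Pfkfb2 to Pfkfb3 was 0.04 and that of Ldhb to Ldha 0.015. Averaging every probe set of each gene put Pfkfb2 to Pfkfb3 at 0.0025. The ratio of Hk2 to Hk1 was 0.16 higher than on the pair on both other arrays.

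Among the glycogen genes of the 27, Gys1, Pgm1 and Pgm2 were nearly level on their brightest probe sets, and Gbe1 and Pygm less so. Gys1, the muscle glycogen synthase gene, ranged from 9.82 to 9.87, the narrowest of the 27. Its dimmer probe set read 7.24 on Tg-Sirt1 2 and 7.89 on the array labelled Tg-Sirt1 1, compared with 7.89 on NTg 1 and 7.78 on NTg 2, and so was low on Tg-Sirt1 2 alone. Pygm, the muscle glycogen phosphorylase gene, ranged from 11.71 on NTg 2 to 12.09. The phosphoglucomutase genes Pgm1 and Pgm2 ranged from 10.23 to 10.48 and from 6.81 to 7.01. A dimmer Pgm1 probe set was higher on both arrays outside the pair. It read 6.95 on Tg-Sirt1 2 and 6.48 on the array labelled Tg-Sirt1 1, compared with 6.42 on NTg 1 and 6.93 on NTg 2. Gbe1, which encodes the branching enzyme, read 7.91 on Tg-Sirt1 2 and 7.67 on the array labelled Tg-Sirt1 1, compared with 7.65 on NTg 1 and 7.39 on NTg 2. Like Slc2a1, its groups did not overlap, by 0.02.

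Glycogen genes outside the 27 had their large differences on 1 array. On NTg 2, 8 of 25 further glycogen genes were over 0.5 lower than the pair and 2 over 0.5 higher, whereas on Tg-Sirt1 2 there were 0 in either direction. For this list and the next 3, the shares over all genes were 8.71% lower and 3.59% higher on NTg 2, and 3.47% lower and 3.09% higher on Tg-Sirt1 2. Ppp1r3c and Ppp1r3b encode subunits that bring a phosphatase to glycogen and so favour synthesis. Ppp1r3c read 12.22 on Tg-Sirt1 2 and 12.32 on the array labelled Tg-Sirt1 1, compared with 12.33 on NTg 1 and 10.98 on NTg 2. Ppp1r3b read 9.23 on Tg-Sirt1 2 and 9.37 on the array labelled Tg-Sirt1 1, compared with 9.34 on NTg 1 and 7.96 on NTg 2. Both were low on NTg 2 alone. Pygl, the liver phosphorylase gene, read 9.73 on Tg-Sirt1 2 and 9.47 on the array labelled Tg-Sirt1 1, compared with 9.54 on NTg 1 and 8.17 on NTg 2. Gyg, which encodes the primer glycogenin, read 12.40 on Tg-Sirt1 2 and 12.05 on the array labelled Tg-Sirt1 1, compared with 12.03 on NTg 1 and 11.44 on NTg 2. All 4 were lowest on NTg 2. The 2 that were over 0.5 higher there, Phka1 and Phkg1, encode subunits of phosphorylase kinase, which activates glycogen breakdown. Phka1 read 9.29 on NTg 2, where the rest lay between 8.61 and 8.91. Phkg1 read 6.23 there, where the rest lay between 5.58 and 5.68, and both were named after their values were seen. Other phosphorylase kinase genes were not higher there, with differences from the pair of -0.545 for Phka2, -0.415 for Phkb and -0.025 for Phkg2. Further phosphatase subunit genes were not lower there, with 0.325 for Ppp1r3a, 0.07 for Ppp1r3d and 0.425 for Ppp1r3e.

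Of 29 further glycolysis and transport genes, 2 were over 0.5 higher and 2 over 0.5 lower than the pair on Tg-Sirt1 2, and 2 were over 0.5 lower on NTg 2. Slc2a3, the gene of the carrier GLUT3, read 8.17 on Tg-Sirt1 2 and 7.11 on the array labelled Tg-Sirt1 1, compared with 7.05 on NTg 1 and 7.40 on NTg 2. It was thus high on Tg-Sirt1 2, as Slc2a1 was. Slc16a7, which encodes the monocarboxylate carrier MCT2, read 5.80 on NTg 2, while the rest lay between 9.08 and 9.20. Bsg, which encodes basigin, the partner that carries MCT1 and MCT4 to the membrane, read 11.39 on Tg-Sirt1 2 and 12.16 on the array labelled Tg-Sirt1 1, compared with 12.19 on NTg 1 and 11.58 on NTg 2. Gpd1, the cytosolic glycerol phosphate dehydrogenase gene, read 7.76 on Tg-Sirt1 2 and 8.59 to 8.87 on the others.

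Among 37 genes of insulin, AMPK and transcriptional control, 2 were over 0.5 higher and 4 over 0.5 lower than the pair on Tg-Sirt1 2. On NTg 2, 1 was over 0.5 higher and 9 over 0.5 lower. The AMPK catalytic subunit gene Prkaa1 read 7.13 on Tg-Sirt1 2 and 5.75 to 6.23 on the others. The AMPK subunit gene Prkab1 and the hypoxia factor gene Hif1a were lowest on NTg 2, at 9.17 and 9.69. Txnip, whose glucose-induced product restrains glucose uptake, was the 1 gene over 0.5 higher on NTg 2, at 11.97 against 10.98 to 11.09 elsewhere. Of 13 genes of the pentose phosphate, polyol and hexosamine branches, 0 were over 0.5 from the pair on Tg-Sirt1 2. On NTg 2, 3 were over 0.5 lower, Tkt at 9.10, Ogt at 9.31 and Uap1 at 7.97. Taldo1, the transaldolase gene, was also lowest on NTg 2 and reached 9.48 on the array labelled Tg-Sirt1 1. In limma 0 genes of these 4 lists had an adjusted p under 0.05.

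Bright genes in general were lower on NTg 2, as most of the 27 were, bright or not. On NTg 2, 23 of the 27 were below the pair (median -0.185), against 9142 of 18193 genes (median -0.005), but of 751 genes with a mean of at least 11, a level set after the values were seen, 613 were below it (median -0.21). Of the 27, 13 were as bright, and all 13 were below it, with a median of -0.185. The other 14, with a mean under 11, had 10 below it and a median of -0.215. The part of brightness in the low values of Hk1, Pfkp, Pgam1 and Pkm on NTg 2 was not tested. The upper quartile of NTg 2 was 7.69, against 7.78 to 7.83 on the other arrays. After a second quantile normalization 17 of the 27 were below the pair on NTg 2, with a median of -0.145, and after centring on medians 25 were, with a median of -0.25. On Tg-Sirt1 2, 16 of the 27 were below the pair (median -0.045), and 13 after a second quantile normalization (median 0.02).

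The probe sets of Gapdh, the glyceraldehyde phosphate dehydrogenase gene, lie along its transcript and showed a graded difference. The 3′ probe set, the brightest, read 13.28 on Tg-Sirt1 2 and 13.48 on the array labelled Tg-Sirt1 1, compared with 13.46 on NTg 1 and 13.21 on NTg 2. The middle probe set read 12.55 on Tg-Sirt1 2 and 13.46 on the array labelled Tg-Sirt1 1, compared with 13.45 on NTg 1 and 12.90 on NTg 2. The 5′ probe set read 11.94 on Tg-Sirt1 2 and 13.29 on the array labelled Tg-Sirt1 1, compared with 13.28 on NTg 1 and 12.52 on NTg 2. Toward the 5′ end both arrays outside the pair were thus lower, Tg-Sirt1 2 the more so. The 3′ value minus the 5′ value, larger where the 5′ end of the transcript is less represented, was 1.34 on Tg-Sirt1 2 and 0.69 on NTg 2, against 0.19 and 0.18 on the pair.

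The dimmer probe sets of the 27 genes often read lower on Tg-Sirt1 2 than the brightest did. Of 28 such probe sets in 16 genes, 20 gave a lower difference of Tg-Sirt1 2 from the pair than the brightest probe set of the gene, and 8 differed from it in sign. On that array 6 of the 28 were over 0.5 lower than the pair, those of Slc2a4, Hk1, Pfkl, Pfkp, Pfkfb2 and Gys1, and 0 over 0.5 higher. On NTg 2, 14 of the 28 gave the lower difference and 10 differed in sign, and there too 6 were over 0.5 lower than the pair and 0 over 0.5 higher. Where along the transcripts these probe sets lie was not determined here, and the part of the 3′ to 5′ difference in the low values of Slc2a4, Pfkm, Pfkl and Pkm was not tested.

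**Figure D4:**
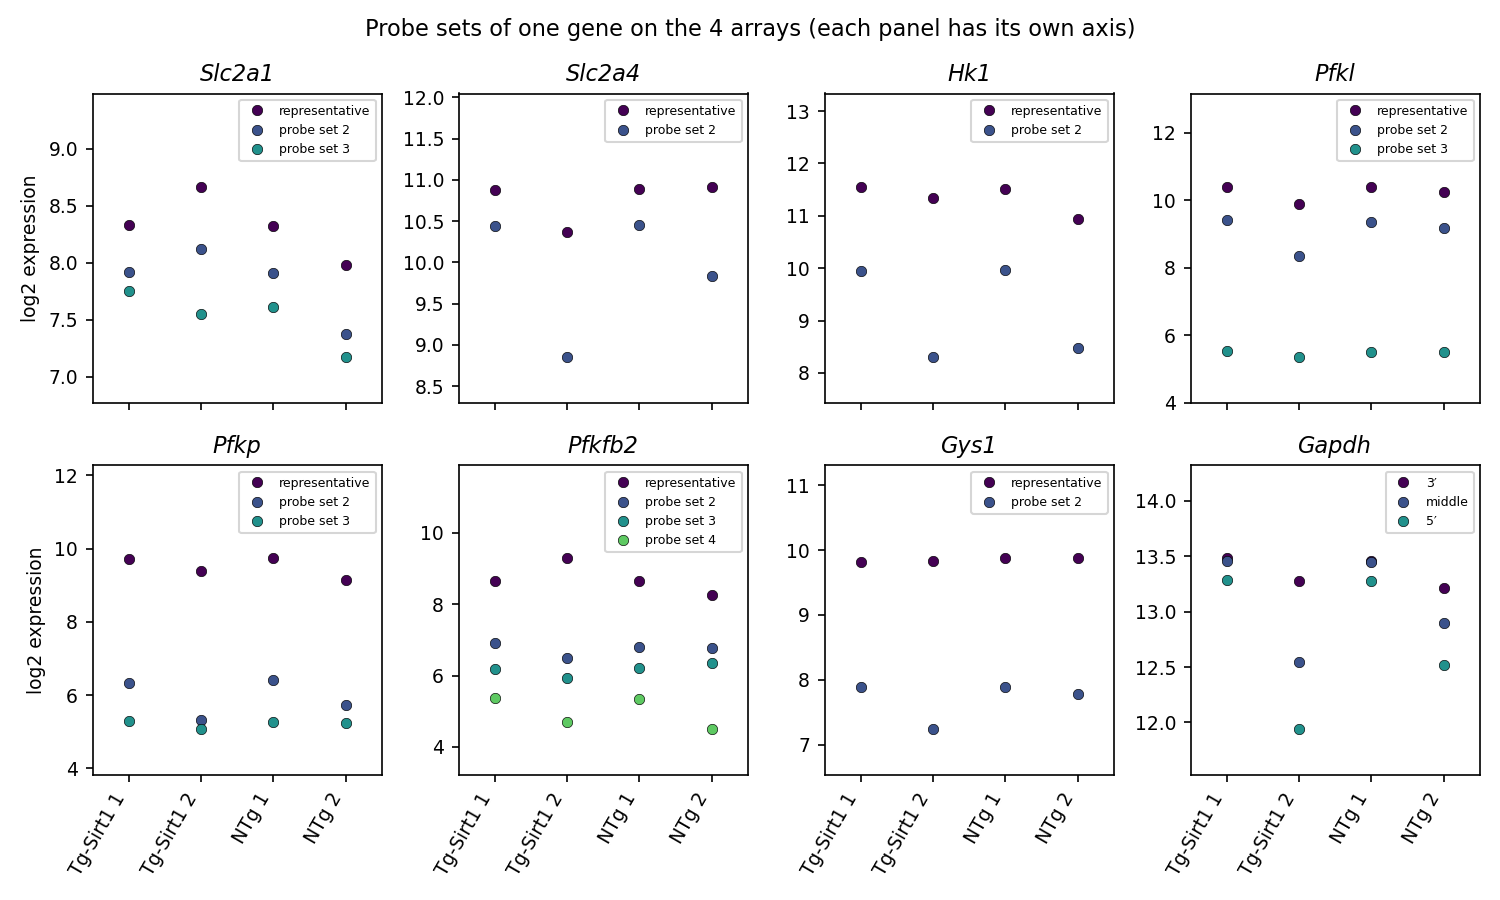
Log2 expression (vertical axes, each panel with its own scale) of every probe set of Slc2a1, Slc2a4, Hk1, Pfkl, Pfkp, Pfkfb2 and Gys1, and of the 3 control probe sets of Gapdh, on the 4 arrays. On Tg-Sirt1 2 the second probe set of Hk1 reads 8.30 and the 5′ probe set of Gapdh 11.94, well below the 9.95 and 13.29 of the array labelled Tg-Sirt1 1.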

How the data were processed

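Total RNA from 4 mouse hearts was measured on 4 arrays. The log2 values were made by the authors with RMA in Affymetrix Expression Console, per the submitters' processing notes, which give no versions. RMA corrects background, quantile normalizes and summarises the probes of a probe set, so that changes in total RNA are removed and dim differences are damped. The deposited log2 table has 45101 probe sets, and its 64 control probe sets did not enter the tests. Symbols came from the platform annotation, which gave 1 symbol to 34945 of the tested probe sets, several to 932 and none to 9160, and the Entrez identifiers of all 27 genes matched the RefSeq table of GRCm38.p6. Scanner files were not used here, so signal over background is not known.

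Tg-Sirt1 was compared with NTg over 45037 probe sets in limma 3.58.1 (R 4.3.3, lmFit and eBayes, prior degrees of freedom 3.1), with two-sided p-values, Benjamini-Hochberg adjustment and a threshold of 0.05. The fit's code was checked on simulated separate arrays, which held no near-identical pair, so the check does not bear on its power here. Besides Sirt1 and the 31, up to 4 genes of a list were named, those with the widest range over the arrays. Further phosphorylase kinase and Ppp1r3 genes, Phka1 and Phkg1 among them, were added after their values were seen. The 31 genes, the lists and the 0.5 threshold were chosen with earlier results of these data known. Alternatives were leaving out each array, a block for the replicate number, the near-identical arrays counted once under either label, other scalings, other priors, a dim filter and other choices of probe set. The number of arrays limits the precision.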

Additional observations from a re-analysis of the deposited data

How the results depend on the processing

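Leaving out 1 array leaves a label with a lone array, assumed to vary like the rest. In limma 0 of the tested probe sets passed the adjusted threshold under any of the 13 alternatives, with lowest adjusted p-values of 0.288 to 0.999. With the replicate number as a block the lowest adjusted p was 0.931, again with 0 probe sets past it and the same 20 genes higher. Deviations of same-numbered arrays had a correlation of 0.293, over 2 pairs, and the arrays share only a number. The count of genes with a higher Tg-Sirt1 mean was 20, and 11 to 25 when 1 array was left out. Leaving out 1 array also turned the sign of these log2 fold changes, with ranges of Hk1 -0.07 to 0.51, Hk2 -0.035 to 0.415, Pfkm -0.385 to 0.225, Pfkl -0.43 to 0.08, Pfkp -0.185 to 0.395, Aldoa -0.115 to 0.075, Tpi1 -0.045 to 0.085, Pgk1 -0.015 to 0.165, Pgam1 -0.055 to 0.875, Eno3 -0.015 to 0.255, Pkm -0.28 to 0.31, Ldha -0.19 to 0.08, Slc16a3 -0.015 to 0.285, Pygm -0.055 to 0.305 and Pgm1 -0.23 to 0.01. With the pair counted once as NTg, Pfkp was -0.055, Tpi1 -0.05 and Pkm -0.24, and once as Tg-Sirt1, Pfkm was 0.1325, Aldoa 0.08 and Slc16a3 -0.095. A second quantile normalization gave Tpi1 -0.0538, Pgam2 -0.0131, Pkm -0.0606 and Slc16a1 -0.0494, and centring on medians gave Aldoa 0.015. The mean over all probe sets gave Pfkp -0.065 and Tpi1 -0.0033. Leaving out probe sets whose names end in _x_at or _s_at gave Slc2a12 -0.045 and left no probe set for Aldoa. On Tg-Sirt1 2 the 5 genes over 0.5 from the pair were 2 after a second quantile normalization, 3 after centring, 9 at a threshold of 0.25 and 0 at 1. On NTg 2 the 4 genes were 1 after a second quantile normalization, 13 at 0.25 and 0 at 1. Among isoform ratios, Hk2 to Hk1 was 0.125 with all probe sets, and leaving out 1 array, an alternative added after seeing the data, gave Slc2a12 to Slc2a1 -0.23 to 0.02, Hk2 to Hk1 -0.125 to 0.065, Pfkm to Pfkl -0.05 to 0.24, Aldoa to Aldoc -0.45 to 0.03, Pgam2 to Pgam1 -0.76 to 0.06 and Slc16a1 to Slc16a3 -0.28 to 0.09. The causes of these changes were not tested, beyond the fewer arrays or the moved threshold.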
